A study of Mus musculus with 4 samples.

Results

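Cytosolic ribosomal proteins were followed in the hearts of *miR-128*-overexpressing mice (*miR-128*OE) and control mice (Ctrl) at postnatal day 7 (P7). The genes were taken by name from the deposited table of gene counts, as protein-coding genes whose symbol is Rpl or Rps with a number and up to 2 further letters, or Rplp0 to Rplp2. Of 24454 genes in the table, 83 fitted this rule, with 49 of the large subunit, 31 of the small subunit and 3 of the stalk of the large subunit. In all, 76 of the 83 had enough counts to be tested, and the other 7 are named below. The rule used symbols and no measured value.

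The ribosome is built from ribosomal RNA and a fixed set of proteins, and most of the proteins are needed in equal number. Their mRNAs start with a run of pyrimidines (a terminal oligopyrimidine, or TOP, start), through which mTOR and LARP1 set their translation together. In the postnatal heart, growth of cardiomyocytes (CMs) draws on this machinery, and striated muscle adds its own forms of some members, such as RPL3L in place of RPL3.

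The 4 libraries were made from total RNA of hearts. WH7 and WH8 were from Ctrl mice, which carried the *miR-128*TetRE allele alone, and WH9 and WH10 from *miR-128*OE mice, which carried *α-MHC*-tTA together with *miR-128*TetRE. In this Tet-off model the α-myosin heavy chain promoter drives the transactivator, so that *miR-128* is induced in CMs once doxycycline is withdrawn, and both conditions hold the responsive allele while only *miR-128*OE holds the transactivator. The sources do not say whether a library was 1 heart or a pool, and the p-values therefore measure the spread between these libraries. Total counts were 12385863 in WH7, 8096870 in WH8, 12440553 in WH9 and 14359838 in WH10. The precursor gene *Mir128-2* had 0, 0, 2 and 10 counts in this order and *Mir128-1* had 0 in each, in libraries that do not measure mature miRNA.

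Sex and condition could not be told apart. *Xist*, the RNA of the inactive X chromosome, had 13299 and 16026 normalized counts in WH7 and WH8 against 93.1 and 111 in WH9 and WH10. The Y-linked gene *Ddx3y* had 11.9 and 9.89 against 1428 and 1487. Every difference below is thus a difference between these libraries of unlike sex as well as between conditions, and the 4 members on the X chromosome are given apart from the rest.

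Sequences are shown for the miRNA, for the members that hold a match to its seed, and for the starts of members on which the counts below turn. Mature *miR-128-3p* is printed with its seed, bases 2 to 8, in capitals, from the RefSeq table on GRCm38.p6.
miR-128-3p: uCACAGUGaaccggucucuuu
Of the 75 tested members with an annotated 3′UTR, 2 held a seed match (2.67%), against 31.0% of 13450 protein-coding genes tested. The 3′UTR used was the longest annotated for any protein-coding transcript of a gene, which need not be that of its usual mRNA. For *Rpl21* it was 1079 bases, whereas the whole principal transcript is 899 bases. By this measure the median 3′UTR of members was 160 bases long and that of protein-coding genes 1200 bases. Both matches were to bases 2 to 7 of the miRNA followed by an A, and the matched 7 bases are in capitals below, with 11 bases of the 3′UTR on each side from GENCODE M21.
Rpl21: ccagcaccaggACTGTGAagtgttttcct
Rpl27a: tttgtaagcttACTGTGAtggacaggtag
*Rpl21* is on chromosome 5 and was among the members that fell in *miR-128*OE hearts, whereas *Rpl27a*, on chromosome 7, was not called. A match is a description of the sequence only.

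Starts were searched for 8 or more consecutive C or T on the strand of the gene, from 25 bases before to 50 bases after the annotated start in RefSeq. Such a run was present in 50 of 63 members with an entry (79.4%) and in 29.99% of 16491 protein-coding genes with one. Among called members it was present in 8 of 9 that fell and in 2 of 2 that rose, and among members not called in 36 of 46. The windows of 30 bases below show the longest run in capitals for 4 members that fell and the 2 that rose.
Rps12: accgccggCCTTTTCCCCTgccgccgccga
Rpl13a: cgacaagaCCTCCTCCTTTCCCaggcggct
Rplp2: cgtcagcgTCTTCCTTTCgccgccggacgc
Rpl36a: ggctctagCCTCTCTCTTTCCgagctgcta
Rps27l: cgcctccaCTCCTCTCCactcctccccgcc
Rpl3l: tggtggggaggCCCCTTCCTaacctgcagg
These windows lie on GRCm38.p6 at chr10:23787180-23787209 (minus strand), chr7:45128722-45128751 (minus), chr7:141447638-141447667 (plus), chrX:134585673-134585702 (plus), chr9:66946056-66946085 (plus) and chr17:24727846-24727875 (plus), in the order printed. In the same order, the runs began at 9, 3, -5, 28, -22 and 32 from the annotated start, where negative positions lie before it. A gene was counted if any of its annotated starts had a run. A run in this window is thus not shown to be a TOP start, and the first base of the mRNA was not examined. Runs in the window were found on both sides of the comparison.

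Most cytosolic ribosomal protein genes differed little between *miR-128*OE and Ctrl hearts, and those called were mainly lower. Under the quasi-likelihood model of edgeR, with Benjamini-Hochberg values over all 14266 genes tested, 11 of 76 members fell, 2 rose and 63 did not pass an adjusted p of 0.05. Of all genes tested, 15.0% fell and 16.5% rose, so the share of members that fell (14.5%) was near the background in this fit and the share that rose (2.63%) was under it. With an offset for GC content and length, 23 members fell (30.3%, against 12.7% of all genes). The median log2 fold change of all 76 members was then -0.19, beside 0.01 over all genes. In the main fit the median log2 fold change of the 76 members was -0.09, beside -0.01 over all genes tested, and 62 of them had a value below 0. The SD of their log2 fold changes was 0.18, near that of the other TOP mRNAs (0.18) and initiation factors (0.20), beside 0.61 over all genes, which include many with low counts. Values of WH9 and WH10 were both under those of WH7 and WH8 in 45 members (59.2%, against 34.4% of all genes tested) and both above in 8 (10.5%, against 33.7%). These members share libraries and normalization, so they are not independent of each other. Each library decided the count that fell. It was 21 without WH8 (27.6%, against 14.2% of all genes) and 7 without WH7 (9.21%, against 16.4%), on either side of the background. The median log2 fold change of the members was -0.13 without WH8 and -0.05 without WH7. The count was 0 without WH9 and without WH10, against 4.56% and 6.97% of all genes, where the lone remaining library is assumed to vary like the others. Scaling by total counts rather than TMM factors moved the median of all genes to -0.11, with 27 members lower (35.5%) and 2 higher, while the calls over all genes went from 16.5% higher and 15.0% lower to 11.3% and 20.7%.

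**Figure D1:**
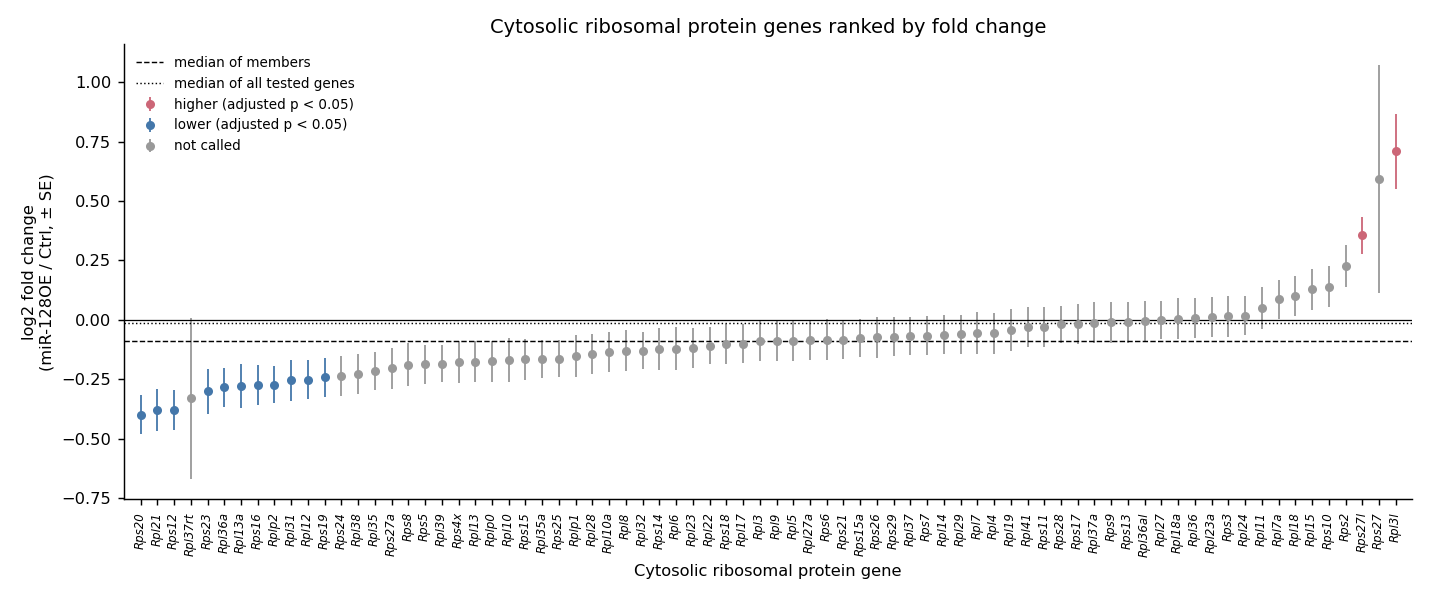
Log2 fold change (miR-128OE over Ctrl, ± SE) of the 76 tested cytosolic ribosomal protein genes, in rank order along the x axis. The dashed line is the median of the members (-0.09) and the dotted line that of all genes tested (-0.01). The 11 genes in blue fell and the 2 in red rose at an adjusted p under 0.05, and 62 of the points lie below 0.

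The largest falls were in *Rps20*, *Rpl21* and *Rps12*. *Rps20* encodes a small subunit protein (chr4:3831584-3835655). It had 8597 and 8250 normalized counts in WH7 and WH8 against 6273 and 6504 in WH9 and WH10, and fell by 24.2% (log2 fold change -0.40, SE 0.08, adjusted p = 0.00675 from edgeR). *Rpl21*, of the large subunit (chr5:146832890-146837032), had 11367 and 10467 in WH7 and WH8 against 8356 and 8424 in WH9 and WH10 (log2 fold change -0.38, SE 0.09, adjusted p = 0.00996 from edgeR). *Rps12*, of the small subunit (chr10:23785183-23787383), had 10581 and 10213 against 7999 and 7992 (log2 fold change -0.38, SE 0.08, adjusted p = 0.0083 from edgeR). In all 3 genes the groups did not overlap, and the gap between them was wider than that between libraries of 1 condition. These were also the only members lower at an adjusted p under 0.01, and none of the 11 changed by 1.5-fold.

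The other members that fell came from each part of the ribosome. *Rps23*, whose protein lies at the decoding center, had 5297 and 4581 normalized counts in WH7 and WH8 against 3905 and 4113 in WH9 and WH10, so that the Ctrl libraries were wider apart than the *miR-128*OE libraries. *Rps16* (log2 fold change -0.27) and *Rps19* (-0.24) are also of the small subunit, and *Rps19* is the gene most often mutated in Diamond-Blackfan anemia. *Rps19* was just inside the threshold (5448 and 5099 against 4417 and 4506, adjusted p = 0.0496 from edgeR), and *Rps24* just outside it (12674 and 12665 against 10734 and 10782, adjusted p = 0.0563). Of the large subunit, *Rpl36a*, *Rpl13a*, *Rpl31* and *Rpl12* fell, with log2 fold changes from -0.28 to -0.25. The RPL13A protein is known outside the ribosome as a repressor of inflammatory mRNAs. Of the 11 calls, only those of *Rps20*, *Rpl21*, *Rps12*, *Rplp2* and *Rps23* were kept in 13 or more of 18 alternative settings, and *Rps19* was kept in 7.

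The stalk proteins recruit elongation factors to the large subunit. *Rplp2* fell, with 3999 and 3887 normalized counts in WH7 and WH8 against 3307 and 3218 in WH9 and WH10 (log2 fold change -0.27, SE 0.08, adjusted p = 0.0244 from edgeR). *Rplp0* and *Rplp1* had log2 fold changes of -0.18 and -0.15 and were not called (adjusted p = 0.153 and 0.212). In each of the 3 genes both *miR-128*OE libraries were under both Ctrl libraries, as they were in 34.4% of all genes tested.

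**Figure D2:**
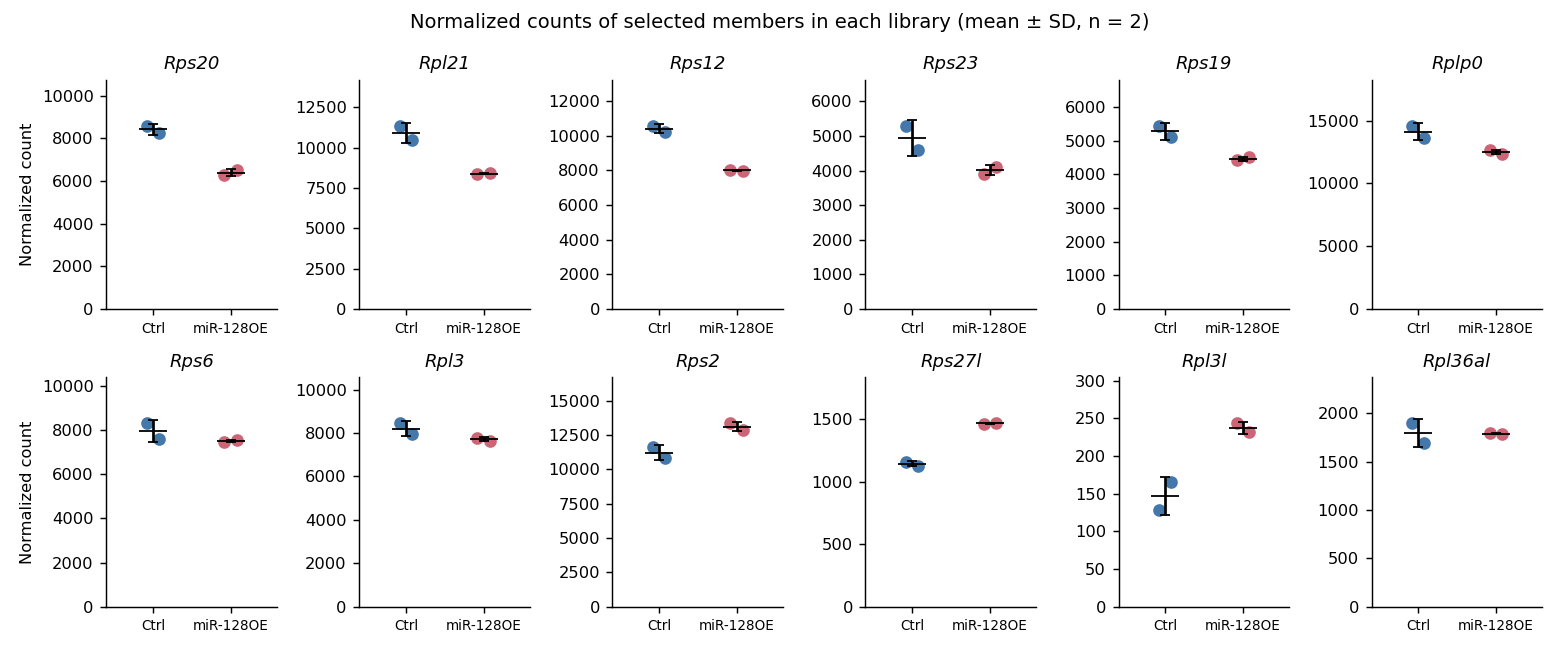
Normalized counts (y axis, from 0) of 12 members in each library, with points for the 2 Ctrl and 2 miR-128OE libraries and bars for the mean ± SD. Rps20, Rpl21 and Rps12 are lower in miR-128OE, Rps27l and Rpl3l are higher, and Rps6, Rpl3 and Rpl36al were not called.

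*Rps6*, *Rpl5* and *Rpl11*, which are known for roles in signaling, were not called. *Rps6*, the target of S6 kinase, had 8297 and 7609 normalized counts in WH7 and WH8 against 7460 and 7545 in WH9 and WH10 (log2 fold change -0.08, SE 0.09, adjusted p = 0.489 from edgeR). *Rpl5* and *Rpl11* encode the proteins that bind MDM2 and so stabilize p53. Their log2 fold changes were -0.09 (SE 0.08) and 0.05 (SE 0.09). *Rps2*, *Rps10* and *Rpl15* had the highest values among members with over 1000 normalized counts that were not called. *Rps2* had 11597 and 10828 in WH7 and WH8 against 13355 and 12883 in WH9 and WH10 (log2 fold change 0.23, SE 0.09, adjusted p = 0.0757 from edgeR). It passed the threshold without a filter and without WH7. For the 73 members with over 1000 normalized counts in Ctrl, the SE ranged from 0.08 to 0.09 on the log2 scale.

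Both members that rose are paralogs, a second gene for the same place in the ribosome. *Rpl3l* (chr17:24727826-24736143) encodes the form of RPL3 found in heart and skeletal muscle. It had 141 and 117 counts in WH7 and WH8 and 246 and 276 in WH9 and WH10, or 129 and 165 against 244 and 232 normalized counts (log2 fold change 0.71, SE 0.16, adjusted p = 0.00857 from edgeR). The Ctrl libraries were wider apart than the *miR-128*OE libraries, and the groups did not overlap. Without WH9 the call was lost (adjusted p = 0.0686), with a log2 fold change of 0.68. *Rpl3* itself had 8449 and 7956 against 7774 and 7644 normalized counts and was not called (log2 fold change -0.09, SE 0.08, adjusted p = 0.449). Within a library, *Rpl3l* came to 1.53% and 2.08% of the *Rpl3* count in Ctrl hearts, and to 3.13% and 3.04% in hearts of *miR-128*OE mice, with principal transcripts of 1375 and 1351 bases. The log2 ratio was higher by 0.79 in *miR-128*OE hearts (-5.81 ± 0.32 against -5.02 ± 0.03, SD, n = 2), with an exact two-sided permutation p of 0.333, the smallest that 2 against 2 libraries allow.

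*Rps27l* (chr9:66944624-66949522), a p53-induced paralog of *Rps27*, had 1160 and 1129 normalized counts in WH7 and WH8 against 1464 and 1467 in WH9 and WH10 (log2 fold change 0.36, SE 0.08, adjusted p = 0.00789 from edgeR). Libraries of 1 condition were close to each other and the groups did not overlap. The call was lost without WH9 (adjusted p = 0.0858) and without WH10 (adjusted p = 0.0694). *Rpl36al*, the paralog of *Rpl36a*, had a log2 fold change of -0.01 (SE 0.08), while *Rpl36a* fell. *Rpl37rt* had 38, 45, 41 and 42 counts and was not called.

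Elongation factor 1A has the same division between a general and a muscle form. *Eef1a2*, the form of adult muscle and neurons, rose 2.13-fold (1626 and 1740 against 3782 and 3391 normalized counts, adjusted p = 6.46e-05 from edgeR). *Eef1a1*, the general form, had a log2 fold change of -0.06 (SE 0.09, adjusted p = 0.641). *Eef1a2* came to 3.30% and 3.74% of the *Eef1a1* count in Ctrl hearts, and to 7.94% and 7.69% in hearts of *miR-128*OE mice. The log2 ratio was higher by 1.15 in *miR-128*OE hearts (exact two-sided permutation p = 0.333, n = 2 a condition). In both pairs the muscle form was the one called, and the general form had many times its count in every library.

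**Figure D3:**
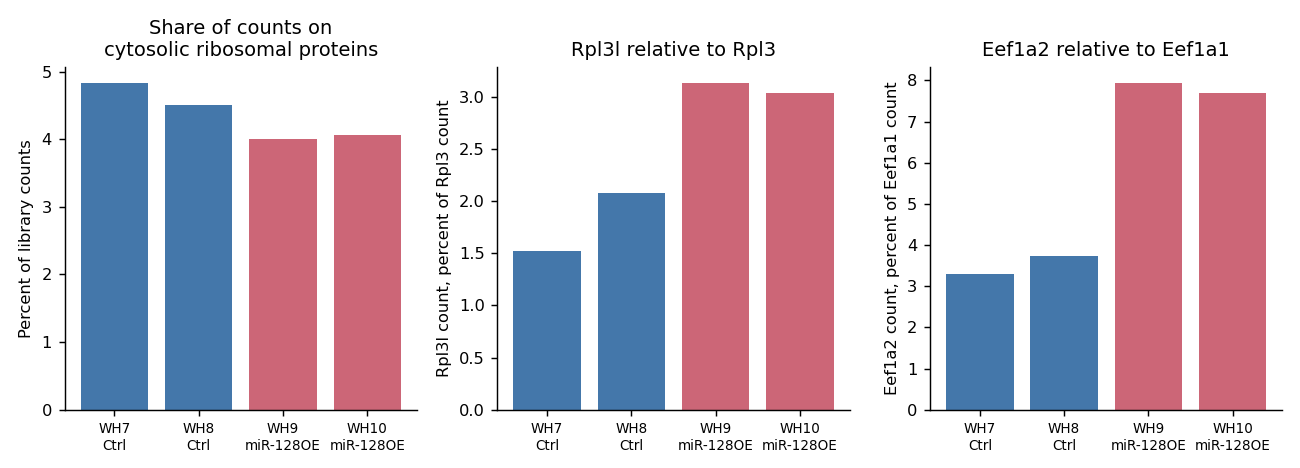
Bars give, for each library (x axis), the percent of counts on cytosolic ribosomal protein genes, the Rpl3l count as a percent of the Rpl3 count, and the Eef1a2 count as a percent of the Eef1a1 count. The share on members is 4.83% and 4.50% in Ctrl and 4.01% and 4.06% in miR-128OE libraries, and both ratios are higher in each miR-128OE library than in either Ctrl library.

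The 4 members on the X chromosome were *Rpl36a*, *Rpl39*, *Rps4x* and *Rpl10*. *Rpl36a* had 3727 and 3392 normalized counts in WH7 and WH8 against 2849 and 2998 in WH9 and WH10 (log2 fold change -0.28, SE 0.08, adjusted p = 0.0278 from edgeR). *Rpl39*, *Rps4x* and *Rpl10* had log2 fold changes of -0.18, -0.18 and -0.17 and were not called. *Rps4x* escapes X inactivation in humans and, in mice, has no Y-linked copy. With autosomal genes alone, 9 of the 72 members then tested fell (12.5%, against 14.8% of all genes) and 2 rose (2.78%, against 16.3%).

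As a whole, members took a smaller share of the counts in *miR-128*OE libraries. They held 4.83% of the counts in WH7, 4.50% in WH8, 4.01% in WH9 and 4.06% in WH10. The mean was 4.66% ± 0.235 in Ctrl and 4.03% ± 0.0415 in *miR-128*OE hearts (SD, n = 2; exact two-sided permutation p = 0.333, the smallest possible). In bulk tissue, fewer cells of a type and less RNA per cell cannot be told apart. A share depends on all other counts, and after TMM scaling the difference was smaller. The 2 Ctrl libraries also differed: WH8 was under WH7 in 66 of 76 members, with a median log2 ratio of -0.10. WH9 was under WH7 in 65 members with a median of -0.12, and WH9 was under WH8 in 50 with a median of -0.04. WH10 and WH9 had a median difference of 0.00. The median difference between the Ctrl libraries was thus as large as the median log2 fold change between conditions.

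**Figure D4:**
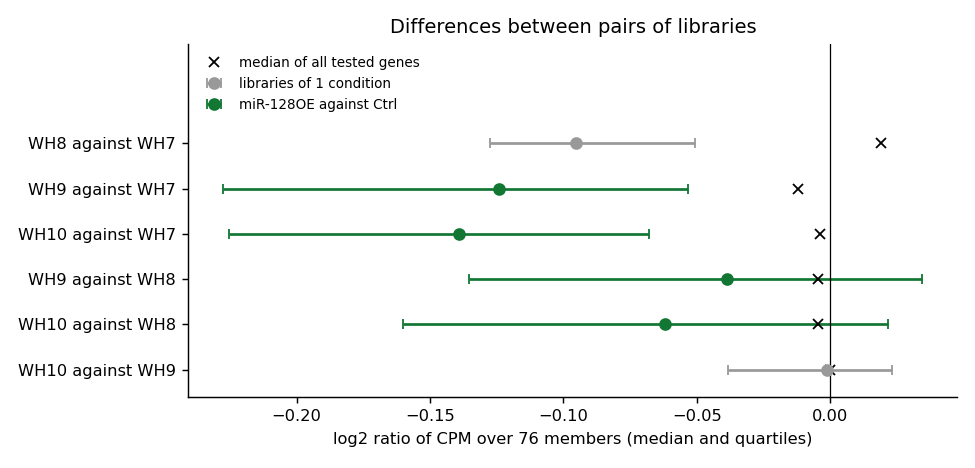
Median log2 ratio of TMM-scaled CPM (x axis, with quartiles) over the 76 tested members for each pair of libraries, and the median of all genes tested as a cross. The pair of Ctrl libraries (-0.10) lies between the comparisons of miR-128OE libraries with WH8 (-0.04 and -0.06) and with WH7 (-0.12 and -0.14).

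Levels were compared between members per kilobase of the principal transcript in GENCODE M21, as normalized counts in Ctrl. Over 74 members with more than 100 normalized counts, the median was 8696 per kilobase, with quartiles at 6554 and 11498. The most abundant were *Rplp1* (23017), *Rps29* (21613), *Rpl41* (21076) and *Rps12* (21046), followed by *Rps14* (18643). Of the large subunit, *Rpl36* and *Rpl38* came next after *Rpl41*, with 15423 and 14770. *Rpl3l* was the lowest of the 74 with 107. *Rps15a* (648) and *Rps20* (2273) were also low, and their principal transcripts are annotated as 5130 and 3706 bases long. The order of levels between neighbors in this range depends on these lengths and was not tested.

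Some members were near 0 in every library. *Rpl26* and *Rps27rt* had 0 counts in each library, which at a floor of 3 counts allows up to 0.371 CPM in the shallowest library, WH8. *Rpl30* had 1, 0, 1 and 5 counts and *Rpl34* had 3, 1, 7 and 8. *Rpl10l* had 1, 0, 0 and 1, *Rpl32l* 4, 2, 1 and 2, and *Rpl39l* 6, 4, 9 and 7. These 7 were not tested, and *Rps27* was tested with 8, 9, 13 and 19 counts. *Rpl10l* and *Rpl39l* are retrogenes used in male germ cells. *Rpl26*, *Rpl30*, *Rpl34* and *Rps27*, in contrast, encode proteins that every ribosome holds, so their counts are no measure of their expression. The 4 globin genes *Hba-a1*, *Hba-a2*, *Hbb-bs* and *Hbb-bt* had 0 counts in every library too. The share of 50-base stretches that also occur in transcripts of other genes was taken over the longest protein-coding transcript of each gene. It was 47.4%, 29.7%, 6.93% and 63.1% for *Rpl26*, *Rpl30*, *Rpl34* and *Rps27*, and 85.5% for *Rpl36a*, which had high counts. Why these 4 rows and those of the globins were near 0 was not tested.

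Ribosomal protein genes have many processed copies, so their counts are uncertain where reads fit several places. The median share of 50-base stretches found in other genes was 40.1% for the 11 members that fell and 40.2% for all 75 tested members with a value. Of the 37 tested members under this median, 6 fell (16.2%) and 2 rose (5.41%), and of the 38 at or above it, 5 fell (13.2%) and 0 rose. Of all genes tested, 15.0% fell and 16.5% rose, so both shares that fell were near the background. The median log2 fold change was -0.09 in each. The 7 annotated pseudogenes named after ribosomal proteins held from 85 to 156 counts per library, and none of the 4 tested was called by edgeR's quasi-likelihood test (1 had an unadjusted p under 0.05, 0 were called by DESeq2, and 1 was lower by the exact and likelihood ratio tests). *Rps4l*, which fits the name pattern and is annotated as a transcribed pseudogene, was left out by the rule. It had 844 and 789 against 1365 and 1219 normalized counts and rose (log2 fold change 0.66, SE 0.09, adjusted p = 0.000835 from edgeR).

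Some ribosomal proteins have symbols outside the pattern. *Rpsa*, of the small subunit, fell, with 13990 and 13123 normalized counts in WH7 and WH8 against 10338 and 10421 in WH9 and WH10 (log2 fold change -0.39, SE 0.09, adjusted p = 0.00891 from edgeR). The call was lost without WH9 and without WH10. *Rps3a1*, *Rack1* and *Fau* had log2 fold changes of -0.12, -0.08 and 0.00 and were not called. The paralogs *Rpl22l1* and *Rpl7l1* were not called either (log2 fold changes of -0.20 and 0.07).

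Many members carry a small nucleolar RNA (snoRNA) in an intron, which guides modification of ribosomal RNA. A snoRNA gene lay within 27 of 76 tested members (35.5%), against 1.75% of all protein-coding genes tested. It was so for 7 of 11 members that fell (63.6%), 20 of 63 not called (31.7%) and 0 of 2 that rose. This property was chosen after the values were seen, and it was not tested. The median log2 fold change was -0.12 for members with a snoRNA gene and -0.08 for those without. Among other protein-coding genes, 15.3% of 209 with a snoRNA gene and 14.7% of 13232 without fell. Of the 9 noncoding hosts of snoRNAs listed, 2 fell (22.2%, against 15.0% of all genes). None rose by edgeR or DESeq2 (1 at an unadjusted p under 0.05), against 16.5% of all genes by edgeR. Those that fell were *Snhg12* (log2 fold change -1.05, SE 0.16, adjusted p = 0.00126 from edgeR) and *Snhg5* (-0.61, SE 0.14, adjusted p = 0.009). *Gas5*, a noncoding host with a TOP start, was not called (adjusted p = 0.0803). Fewer hosts fell without WH9, as did fewer of all genes tested, and more fell without WH7. The fit of protein-coding genes alone leaves these hosts out.

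Proteins of the mitochondrial ribosome, which translates only the genes of mitochondrial DNA, are set beside the cytosolic ones. Of 78 tested, 49 rose (62.8%, against 16.5% of all genes) and 2 fell (2.56%, against 15.0%), with a median log2 fold change of 0.35. *Mrpl15* (log2 fold change 0.81), *Mrps11* (1.06) and *Mrpl34* (0.79) had the smallest p-values. Of 38 proteasome subunits, 26 rose (68.4%) and 1 fell (2.63%), with a median of 0.35 and with *Psmb7* (0.59), *Psmb5* (0.59) and *Psmd12* (0.51) leading. Of the 604 genes tested whose average log2 CPM was 8 or more, a group that held 69 of the members, 40.9% rose and 14.2% fell, with a median of 0.17. Fewer genes of the mitochondrial ribosome and of the proteasome rose without WH9 or without WH10, as did fewer of all genes tested. With total counts, 30 of the mitochondrial ribosome and 18 of the proteasome rose, against 11.3% of all genes. The difference between lists was not tested.

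**Figure D5:**
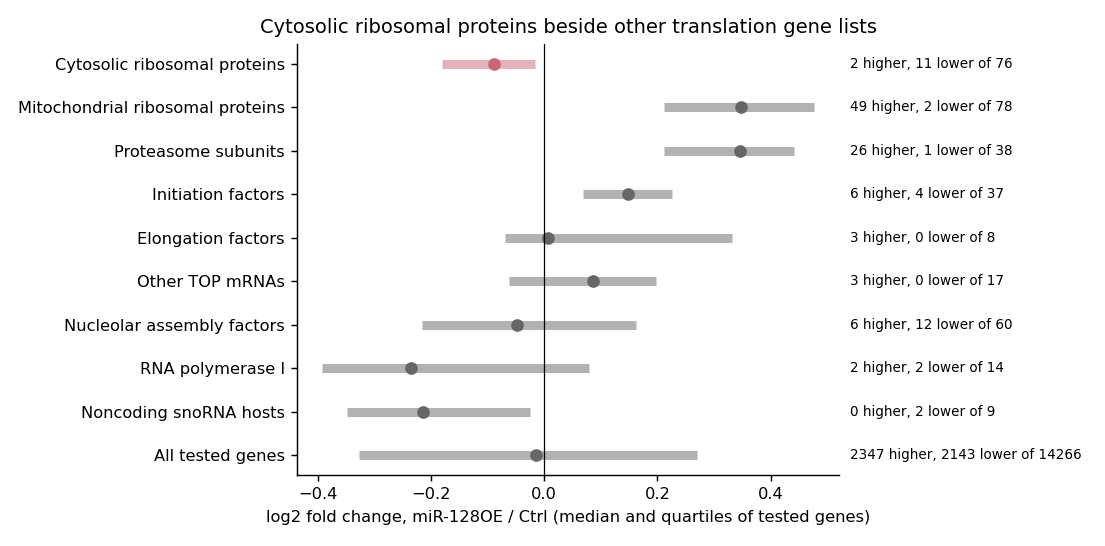
Median log2 fold change (dots) and quartiles (bars) of the tested genes of each list, with the number higher and lower at an adjusted p under 0.05 at the right. Cytosolic ribosomal proteins lie at -0.09, mitochondrial ribosomal proteins and proteasome subunits at 0.35, and all genes tested at -0.01.

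Of the cytosolic translation factors, 3 of 8 elongation factors rose (37.5%, against 16.5% of all genes). None fell (against 15.0% of all genes) by edgeR, by DESeq2 or at an unadjusted p under 0.05. Beside *Eef1a2*, *Eif5a* rose (log2 fold change 0.40), which carries hypusine and helps peptide bond formation. *Eef2*, which moves the ribosome along the mRNA, also rose (0.31). Of 37 initiation factors tested, 6 rose (16.2%, against 16.5% of all genes) and 4 fell (10.8%, against 15.0%), with a median of 0.15. The helicase *Eif4a1* (log2 fold change 0.42) and *Eif3m* (0.41) rose, and *Eif5* (-0.36), which sets start codon choice, and *Eif4e3* (-0.41) fell. Of 17 other mRNAs with a TOP start, 3 rose (17.6%, near the 16.5% of all genes), namely *Eif3h*, *Eef2* and *Eif4b*. None fell by edgeR, against 15.0% of all genes (3 at an unadjusted p under 0.05, and 1 by DESeq2). Their median was 0.09, against -0.09 for the cytosolic ribosomal proteins. Fewer elongation factors, initiation factors and other TOP mRNAs rose without WH9 or without WH10, as did fewer of all genes tested. Without WH7, more initiation factors and other TOP mRNAs rose, and some of the latter fell. The balance of the last group was not stable: with total counts 0 rose and 3 fell, and in the fit of protein-coding genes alone 2 rose and 2 fell. With total counts, 3 initiation factors rose and 4 fell. Of the initiation factors that fell in the main fit, *Eif2s3x* is on the X chromosome. With autosomal genes alone, 6 rose and 3 fell.

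Of 60 nucleolar assembly and ribosomal RNA processing factors, 12 fell (20%, against 15.0% of all genes), 6 rose (10%, against 16.5%) and 42 were not called. *Mdn1* (log2 fold change -0.64), an AAA ATPase of large subunit assembly, *Noc3l* (-0.70) and *Dkc1* (-0.48), the pseudouridine synthase, fell with the smallest p-values. *Dkc1* is on the X chromosome, so its value cannot be told apart from a difference of sex. With autosomal genes alone, 11 assembly factors fell and 4 rose, where 14.8% of all genes fell and 16.3% rose. Of 14 subunits and factors of RNA polymerase I, 2 fell and 2 rose (14.3% each way, near the background), among them *Taf1d* (-0.85), *Twistnb* (-0.52) and *Rrn3* (0.38). Of 10 chaperones and importers of ribosomal proteins, *Ipo5* rose (0.35) and none fell by edgeR or DESeq2 (1 at an unadjusted p under 0.05), whereas 1 fell without WH8, with total counts and with protein-coding genes alone. Fewer assembly factors fell and fewer rose without WH9 or without WH10, as was so for all genes tested. The calls of RNA polymerase I that rose and that of *Ipo5* were lost without WH9 and without WH10. Fewer of RNA polymerase I fell in these fits. With total counts, RNA polymerase I had 6 lower and 1 higher.

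Of 24 tested regulators of ribosomal protein genes around mTOR, LARP1 and MYC, 6 rose (25%, against 16.5% of all genes) and 2 fell (8.33%, against 15.0%). *Rheb*, the activator of mTOR complex 1, rose (log2 fold change 0.60, SE 0.08, adjusted p = 0.000725 from edgeR), as did *Larp4* (0.63) and *Eif4ebp1* (0.49), which encodes a repressor of cap binding. *Mtor* (log2 fold change 0.15, adjusted p = 0.258), *Larp1* (-0.16, adjusted p = 0.14) and *Myc* (0.00, adjusted p = 0.992) were not called. Fewer regulators rose and fewer fell without WH9 or without WH10, as was so for all genes tested, and more fell without WH7. With total counts, 5 rose and 6 fell. These are mRNA levels and say nothing of the activity of the proteins.

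Of the cell type markers, those of CMs and of brown fat had the largest shares that rose, 8 of 14 and 4 of 7 (57.1% each, against 16.5% of all genes), while most fibroblast, endothelial, leukocyte and epicardial markers were not called. Their part in the values above was not tested. Of the CM markers 1 fell (7.14%, against 15.0%), and their summed level was 57014 and 60848 CPM in Ctrl and 74672 and 74041 CPM in *miR-128*OE libraries, with *Myh6* the most abundant. *Actc1*, *Nkx2-5* and *Myh7* had the smallest p-values, with log2 fold changes of 1.34, 1.05 and 1.55. Of 10 fibroblast markers 1 rose, and their sum was 10842, 6930, 8852 and 9716 CPM in WH7 to WH10, lowest in WH8, with *Col3a1* leading. The fibroblast markers turned on which Ctrl library was kept, with every one called higher without WH7 and some called lower without WH8. Of 10 endothelial markers 2 rose and 2 fell (20% each), with sums from 3534 to 3837 CPM. Of 9 smooth muscle and pericyte markers 3 rose (33.3%) and 1 fell (11.1%). None of 12 leukocyte markers tested was called by edgeR's quasi-likelihood test or DESeq2 (1 had an unadjusted p under 0.05 and was lower by the exact and likelihood ratio tests), and their sums were 138 to 173 CPM with *Csf1r* the most abundant. None of 7 epicardial markers was called by the same 2 tests (2 had an unadjusted p under 0.05, and 1 was lower by the exact and likelihood ratio tests), with sums of 166 to 240 CPM. Of 6 Schwann cell markers 1 rose and 1 fell (16.7% each), and with autosomal genes alone 1 rose and 0 fell. Of 5 tested skeletal muscle markers 2 rose (40%) and 1 fell (20%), led by *Acta1*, with *Myod1* at 0 counts throughout. Of 5 erythroid markers tested, *Alas2*, which is on the X chromosome, rose (20%). Of 7 brown fat markers 4 rose, among them *Ucp1*, with 51.2 and 4.24 against 250 and 159 normalized counts. Fewer CM markers and brown fat markers rose without WH9, as did fewer of all genes tested, and some epicardial markers fell without WH8.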

How the data were processed

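RNA-seq of P7 hearts (2 Ctrl and 2 *miR-128*OE libraries) was used. Per the paper's methods and the submitters' processing notes, the authors aligned reads to mm10 with TopHat2 and deposited raw counts per gene, made with Bioconductor packages. Gene models, strand and the handling of multiply mapped reads are not given in the sources used here. Entrez identifiers were matched to symbols for 24374 of 24454 rows. The members, lists and tests were chosen with earlier results of these data known.

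From the counts, edgeR 4.0.16 in R 4.3.3 was run with filterByExpr, TMM factors and the quasi-likelihood test, with Benjamini-Hochberg adjusted p-values over the 14266 genes kept (threshold 0.05). Each SE is the size of the log2 fold change over the square root of F. Normalized counts are TMM-scaled to the mean effective library size, and log2 CPM used a prior count of 2. The biological coefficient of variation was 8.78%. On simulated counts for these 14266 genes with 200 changed, 91.0% of changes of 1 on the log2 scale and 100% of those of 2 were recovered, and 6.34% of calls were false. Smaller changes were not simulated. The log2 fold changes of tested members ran from -0.40 to 0.71, so these rates say nothing of how often changes of their size are found. Library totals were 8096870 to 14359838, and floors of 3 counts cover counting error only, since PCR reads are not independent molecules. Permutation tests and summaries used Python 3.11.15 with scipy 1.17.1.

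Genes are named by rule: paralogs, the 6 highest and 6 lowest members by log2 fold change, the 3 most abundant per subunit, X-linked members, members with a seed match, *Rplp0*, *Rplp1*, *Rplp2*, *Rpl5*, *Rpl11*, *Rps6* and *Rps19*, and in other lists the 3 genes with the smallest p-value with *Eef1a1*, *Eef1a2*, *Larp1*, *Mtor* and *Myc*. Other named genes were chosen after their values were seen, and *Rps3a1* was added to its list then. Alternatives were other size factors, filters, tests (DESeq2 1.42.0 among them), thresholds, an offset for GC content and length, autosomal genes, and each library left out, with protein-coding genes alone added after the data were seen. Hearts at P1 and P28 were not analysed here. Some listed genes are not reported here.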

Additional observations from a re-analysis of the deposited data

How the results depend on the processing

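The number of members that rose was 2 in the main fit (2.63%, against 16.5% of all genes) and in 12 of the other settings that use all 4 libraries. It was 3 without a filter (3.70%, against 14.9% of all genes) and 1 where a change of 1.5-fold was required. In the settings with all 4 libraries and a value over all genes, from 11.3% (total counts) to 17.6% (offset) of all genes rose. The number of members was lower without WH9 or WH10, as was the share of all genes, and higher without WH7. The number that fell was 11 of 76 (14.5%, against 15.0% of all genes). It was 9 with DESeq2 size factors and with autosomal genes (against 14.9% and 14.8%), 11 with DESeq2 (14.5%, against 9.88% of all genes), 11 with the CPM filter and with factors made without the members (against 15.5% and 15.1%), 12 without a filter and with protein-coding genes (14.8% and 15.8%, against 13.3% and 15.2%), and 14 with upper-quartile factors (18.4%, against 17.5%). It was 6 by the exact and likelihood ratio tests (7.89%, against 16.9% and 17.2%), 23 with an offset for GC content and length (30.3%, against 12.7%), 27 with total counts (35.5%, against 20.7%), 3 at an adjusted p under 0.01, 0 with at least 1.5-fold, and 0 to 21 when 1 library was left out. The median log2 fold change of members was -0.09, -0.19 with the offset and -0.19 with total counts, -0.05 without WH7 and -0.13 without WH8, and it was below 0 in every setting. The cause of these differences was not tested, beyond the smaller number of libraries. All 11 members that fell kept a value below 0 in each setting that tested them. Leaving out 1 library gave differences of -0.80 to -0.46 percentage points in the share of counts on members and of 0.57 to 1.01 in the log2 ratio of *Rpl3l* to *Rpl3*, which was 0.76 with 5 added to each count. Over 105 genes, those named by the rule and others of the lists, 1864 values under alternatives kept their call in 1649, lost it in 156 and gained one in 59, and 0 reversed. With 2 libraries a condition, no alternative of the single-value tests could reach a p of 0.05. The denominator without genes of mitochondrial DNA gave no value, as none of their rows was analysed here. No paired analysis was possible because the labels number no replicates, and the numbers used here follow the order of deposit and pair no libraries.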
